A study of Homo sapiens with 4 samples.

Results

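The loci of 9 genes that encode enzymes of androgen synthesis and conversion were examined for lamin B1 occupancy in 2 human prostate cancer cell lines, LNCaP and VCaP. The genes lie at 5 loci of hg19, whose bounds are gene positions and use no measured value. They are CYP17A1 on chromosome 10 from 104590000 to 104598000, HSD3B2 and HSD3B1 on chromosome 1 from 119957000 to 120058000, AKR1C1 to AKR1C4 on chromosome 10 from 5005000 to 5261000, SRD5A1 on chromosome 5 from 6633000 to 6670000, and SRD5A2 on chromosome 2 from 31749000 to 31807000. Every 40 kb bin that overlapped a locus or the 1 Mb on either side of it was taken. This gave 265 of the 71569 bins measured in both lines, and 17 of the 265 overlapped the loci themselves.

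Both are established cell lines, LNCaP from a prostate adenocarcinoma and VCaP from bone metastatic prostate cancer. Both were grown in continuous culture with serum, LNCaP in RPMI and VCaP in DMEM F12, and were fixed in the flask with formaldehyde; the labels name no androgen treatment or genetic change. Sheared chromatin of each line was precipitated with a polyclonal antibody against lamin B1, and an input library without antibody was made beside it. The 4 libraries form 4 groups of 1, so no difference below has a replicate check and no p-value is given.

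Androgens are made from cholesterol in a chain of oxidations and reductions. CYP17A1 forms dehydroepiandrosterone from its steroid precursor, the HSD3B enzymes oxidise it to androstenedione, AKR1C3 reduces androstenedione to testosterone, and the SRD5A reductases turn testosterone into the more potent dihydrotestosterone. Prostate tumours under androgen deprivation can draw on this chain to make androgens of their own, and CYP17A1 and SRD5A2 are drug targets. Lamin B1 belongs to the protein mesh that lines the nuclear envelope from within, and chromatin that touches it is as a rule poor in genes and low in transcription. Enrichment of ChIP over input in such an assay reads contact with the lamina and says nothing directly about expression, which was not measured here.

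The DNA just upstream of the start sites shows how unlike the loci are in base composition and how alike the copies within 1 locus can be. The 250 bases before the start of 5 members are given 5′ to 3′ from RefSeq on GRCh38.p14, a different build from the lamin tables, with each CG dinucleotide in capitals.
CYP17A1, chr10:102837414-102837663, minus strand: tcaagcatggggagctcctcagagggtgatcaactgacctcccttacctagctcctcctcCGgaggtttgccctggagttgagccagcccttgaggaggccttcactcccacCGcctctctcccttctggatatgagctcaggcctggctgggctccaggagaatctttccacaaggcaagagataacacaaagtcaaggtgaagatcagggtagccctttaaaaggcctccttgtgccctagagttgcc
AKR1C1, chr10:4963165-4963414, plus strand: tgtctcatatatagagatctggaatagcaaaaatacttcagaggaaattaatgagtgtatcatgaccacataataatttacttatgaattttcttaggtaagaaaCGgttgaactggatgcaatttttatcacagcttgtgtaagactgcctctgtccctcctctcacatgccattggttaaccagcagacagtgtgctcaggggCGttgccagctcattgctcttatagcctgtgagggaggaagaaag
AKR1C2, chr10:5003858-5004107, minus strand: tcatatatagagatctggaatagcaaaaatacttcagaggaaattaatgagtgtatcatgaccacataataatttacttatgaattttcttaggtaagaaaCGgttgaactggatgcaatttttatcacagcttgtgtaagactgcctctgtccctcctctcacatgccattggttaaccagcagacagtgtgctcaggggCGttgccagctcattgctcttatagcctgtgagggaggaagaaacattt
SRD5A1, chr5:6633190-6633439, plus strand: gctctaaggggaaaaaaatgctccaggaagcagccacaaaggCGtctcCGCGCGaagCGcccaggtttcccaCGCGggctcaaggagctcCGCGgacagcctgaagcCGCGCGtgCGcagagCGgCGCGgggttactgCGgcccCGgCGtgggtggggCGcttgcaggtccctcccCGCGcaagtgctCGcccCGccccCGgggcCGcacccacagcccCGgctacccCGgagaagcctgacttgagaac
SRD5A2, chr2:31580939-31581188, minus strand: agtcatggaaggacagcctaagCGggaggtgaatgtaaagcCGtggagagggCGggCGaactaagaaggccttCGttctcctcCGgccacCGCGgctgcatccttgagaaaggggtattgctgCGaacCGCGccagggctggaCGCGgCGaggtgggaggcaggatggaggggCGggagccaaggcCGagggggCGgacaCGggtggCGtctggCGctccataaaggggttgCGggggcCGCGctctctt
All 9 genes matched the RefSeq promoter table, with 11 start sites. In the full 300-base windows, which run 50 bases past the start, SRD5A1 held 33 CG dinucleotides and SRD5A2 held 29, against a median of 14 over 35114 promoters. The other 7 genes held between 0 and 3, and AKR1C3 held none at either of its 2 start sites. The AKR1C1 and AKR1C2 windows were identical at 288 of 292 aligned bases (98.6%) and lie on opposite strands. AKR1C4 was the most distant copy, with 70.4% to 71.9% identity to the others. Reads from such near-identical sequence may be placed at either copy, and the handling of such reads is not given in the sources used here, so bins within the AKR1C cluster are less certain than their noise alone shows. TATAAA on either strand was found at AKR1C4 and at 1 of the AKR1C3 start sites, and in 11.5% of all promoters. The androgen receptor motif AGAACA on either strand was found at HSD3B2 only, and in 14.8% of all promoters. These matches describe letters in a window and not sites in use.

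The deposited value of a bin is the log2 enrichment of ChIP over input. Its median over all bins was 0.06 in LNCaP and 0.19 in VCaP, a shift of 0.13 between the lines. The deposited hidden Markov model puts each bin in 1 of 2 states, and the state with the higher enrichment is called associated here. Its median was 0.40 in LNCaP and 0.54 in VCaP, against -0.10 and -0.06 in the other state. Each value behaves as the mean of its own bin and the 2 before it, so a small gene is read together with up to 80 kb to its left. The noise SD of a single bin, from bins 3 apart, was 0.15 in LNCaP and 0.22 in VCaP, and 0.27 for the difference between the lines. Errors given as ± below are this noise SD, divided by the square root of the number of separate values in a locus; they apply to these libraries, not to the cell lines in general. Depth is unknown.

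Each of the 5 loci was in the associated state in 1 line and outside it in the other. In LNCaP the AKR1C cluster and SRD5A2 were associated, 2 of 5 loci, where 37.9% of all bins were. In VCaP CYP17A1, the HSD3B pair and SRD5A1 were associated, 3 of 5 loci, where 44.4% of all bins were. A locus was counted when at least 50% of its bins had the state. Of the 17 bins, 9 were associated in LNCaP only, 6 in VCaP only, 2 in neither and 0 in both. Over all bins the shares were 17.2% in LNCaP only, 23.8% in VCaP only, 38.4% in neither and 20.6% in both, so 41.0% were associated in 1 line only. With 5 loci, these counts are a description, and they rest on the deposited states. With bins over 0 counted as associated instead, all 5 loci were associated in VCaP and 3 of them, the HSD3B pair, the AKR1C cluster and SRD5A2, also in LNCaP. With bins over 0.5 counted, CYP17A1 in VCaP was the 1 locus associated in either line. The state is also not the size of the difference. Only 2 of the 5 loci differed between the lines by more than 2 noise SDs, as given locus by locus below.

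**Figure D1:**
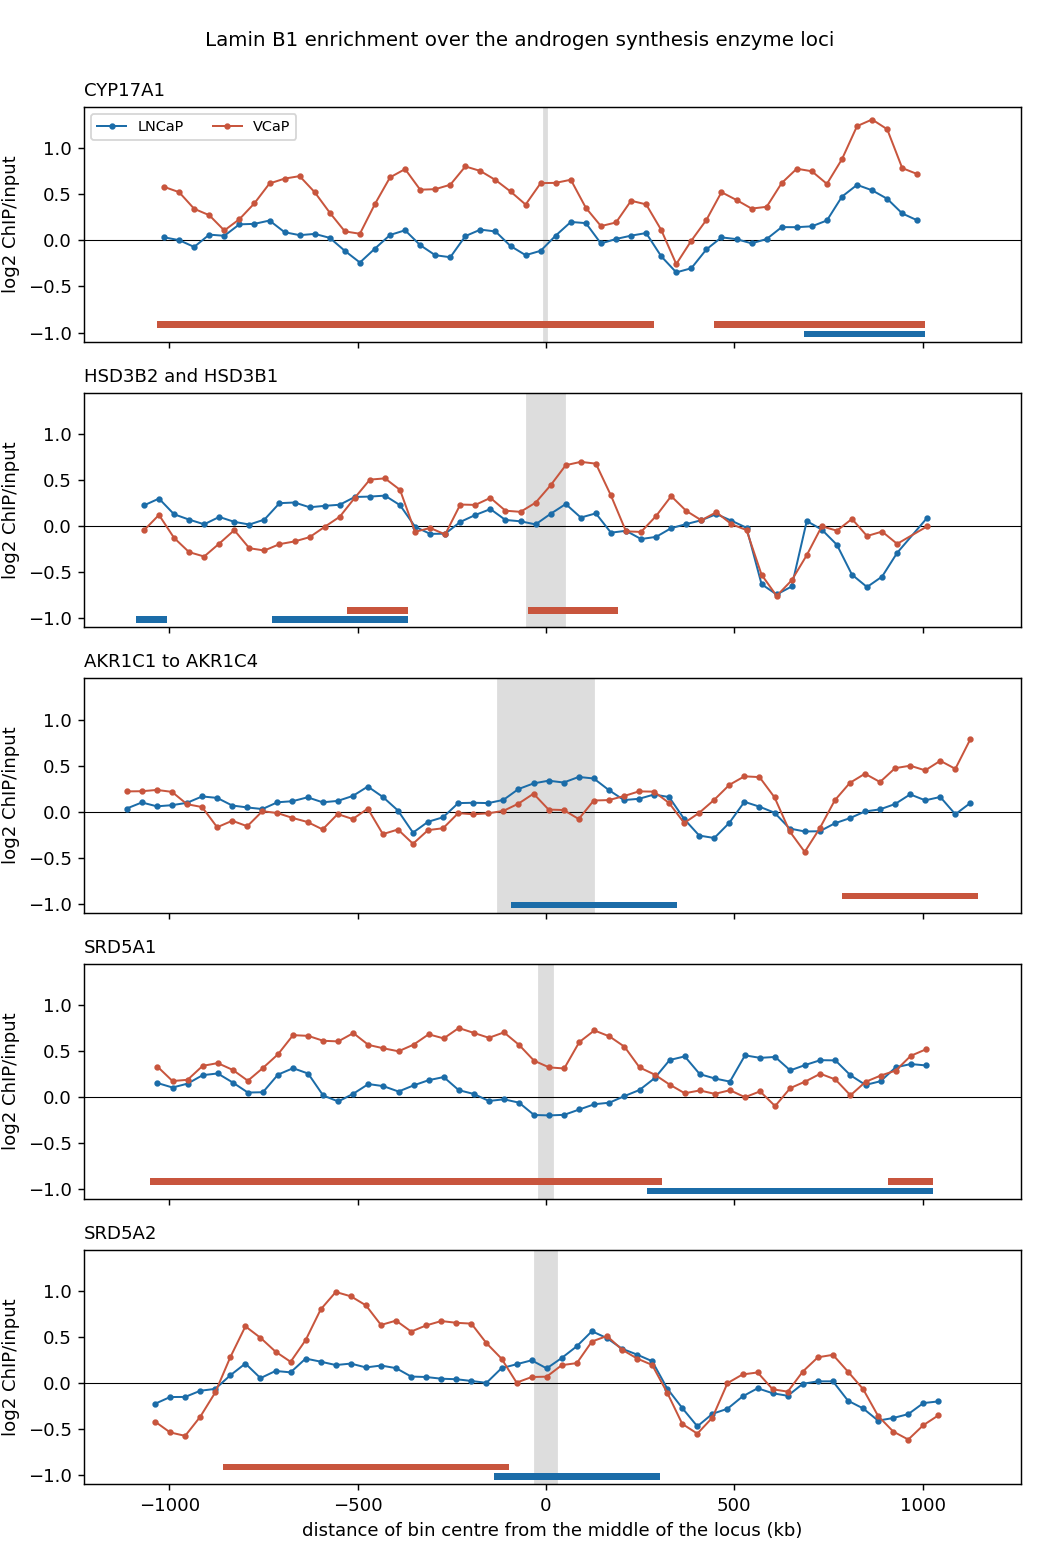
Log2 enrichment of lamin B1 ChIP over input (vertical axis) in 40 kb bins against the distance of the bin centre from the middle of each locus in kb (horizontal axis), for LNCaP (blue) and VCaP (red). Grey bands are the loci and the strips at the foot of each panel mark bins in the associated state of each line; at every locus a strip of 1 line covers the band wholly or for the most part while the other line has none.

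CYP17A1, the hydroxylase and lyase that commits steroid precursors to the androgen branch and is inhibited by abiraterone, had the largest difference among the 5 loci. The gene lies within 1 bin, from 104560001 to 104600000. That bin read -0.11 ± 0.15 in LNCaP and 0.62 ± 0.22 in VCaP on the log2 scale. VCaP was thus 0.74 ± 0.27 higher, beyond 2 noise SDs, as were 19.1% of all single bins, while 7.84% were as far in the other direction. The LNCaP bin ranked above 29.9% of all bins of its line, and the VCaP bin above 82.7%. With the inferred 3-bin mean undone, the estimate for the bin alone was 0.08 in LNCaP and 1.03 in VCaP. The noise SDs of such estimates, from adjacent bins, were 0.18 and 0.27. Over the 5 bins on each side they ran from -0.34 to 0.42 in LNCaP and from -0.08 to 0.88 in VCaP. CYP17A1 and SRD5A1 were the 2 loci with a mean under 0 in LNCaP and over 0 in VCaP, as were 23.2% of all bins. Both LNCaP means were within 2 noise SDs of 0, so their sign was not settled.

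The CYP17A1 difference ran in the same direction across the neighbourhood. VCaP was above LNCaP in 51 of the 51 bins of the window, by 0.48 on average in the left flank and 0.42 in the right, and 20 bins passed 2 noise SDs. Over all bins VCaP was above LNCaP in 58.1%, and 19.1% passed the limit. The window counts depend on the zero point. Centring each line on its genome median brought the bins with VCaP past the limit, in all 5 windows together, from 45 to 16. The share of this window was not counted separately. The gene lay inside a VCaP domain of 1520 kb, from 103360001 to 104880000, where the VCaP mean was 0.48 and the LNCaP mean of the same bins was 0.03. The bins of a domain are chosen by a state that was called on the enrichment, so which line has the higher mean over them here and below is set by that choice and is no result. In LNCaP it lay in a stretch of 4160 kb outside the associated state, and the next LNCaP domain began 682 kb to the right of the gene. The neighbourhood is rich in genes: RefSeq lists 36 other protein-coding genes within 1 Mb, with WBP1L and BORCS7 as the nearest. Although the levels differed, the profiles went up and down together. The Pearson r was 0.78 over the 51 bins, which overlap in sequence through the averaging, against 0.28 over all common bins. The lowest bin was the same in both lines, from 104920001 to 104960000, at -0.35 in LNCaP and -0.26 in VCaP. The highest bins lay side by side, 802 and 842 kb right of the gene, at 0.60 in LNCaP and 1.31 in VCaP.

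HSD3B2, the adrenal and gonadal form, and HSD3B1, the form of placenta and peripheral tissues including the prostate, lie in that order on chromosome 1 and cover 4 bins. From the HSD3B2 end to the HSD3B1 end the log2 enrichment was 0.05, 0.02, 0.13 and 0.24 in LNCaP. In VCaP it was 0.15, 0.25, 0.44 and 0.66. On these overlapping means VCaP was higher in each of the 4 bins and the gap widened toward HSD3B1. With the 3-bin mean undone, the bins read 0.10, 0.20, 0.09 and 0.42 in LNCaP. In VCaP they read 0.00, 0.64, 0.68 and 0.65. VCaP was then not higher in the first bin, and the gap did not widen steadily. The means of the deposited values were 0.11 ± 0.13 in LNCaP and 0.38 ± 0.19 in VCaP. The difference of 0.27 ± 0.23 was within 2 noise SDs. Among all runs of 4 bins, 22.3% had VCaP higher by over 2 noise SDs.

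A VCaP domain began at the left edge of the HSD3B pair. It spanned 6 bins from 119960001 to 120200000 and averaged 0.51, and its highest bin, at 0.70, lay 22 kb beyond HSD3B1. In LNCaP these 6 bins averaged 0.09 and were outside the associated state. At 240 kb the domain was short, as the median VCaP domain had 14 bins. Another domain lay to the left in both lines, from 119280001 to 119640000 in LNCaP and from 119480001 to 119640000 in VCaP, with the same right border 317 kb before HSD3B2. On the other side both lines had their lowest value in the same bin, 542 kb right of HSD3B1, at -0.74 in LNCaP and -0.76 in VCaP. HAO2 and ZNF697 are the nearest protein-coding neighbours.

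The AKR1C cluster holds AKR1C1 and AKR1C2, which chiefly inactivate dihydrotestosterone and other steroids, AKR1C3, which makes testosterone from androstenedione, and AKR1C4, mainly a liver enzyme. It had higher enrichment in LNCaP. Along its 7 bins from the AKR1C1 end to the AKR1C4 end the log2 enrichment in LNCaP was 0.13, 0.25, 0.31, 0.34, 0.32, 0.38 and 0.36. In VCaP it was 0.01, 0.09, 0.20, 0.02, 0.02, -0.08 and 0.12. On these overlapping means each of the 7 bins was higher in LNCaP, and the ranges of the lines overlapped only between 0.13 and 0.20. With the 3-bin mean undone, the third bin from the AKR1C1 end went the other way, at 0.38 for VCaP against 0.24 for LNCaP. Every other bin of the cluster stayed higher in LNCaP. The means of the deposited values were 0.30 ± 0.10 in LNCaP and 0.05 ± 0.15 in VCaP. The VCaP minus LNCaP difference of -0.24 ± 0.18 was within 2 noise SDs, a limit that LNCaP passed in 14.4% of all runs of 7 bins. After each line was centred on its genome median the difference was -0.38, and it was then beyond 2 noise SDs. With the 3-bin mean undone it was -0.25 ± 0.12, also beyond, so the call depends on the processing.

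In LNCaP most of the cluster lay in a domain that ran on past it. The associated state covered 11 bins, 6 of them bins of the cluster, from 5040001 to 5480000, starting 35 kb inside the AKR1C1 end and ending 219 kb beyond AKR1C4. It was the single LNCaP domain in the window, where 11 of 57 bins were associated. The bin with the highest deposited LNCaP value in the window, 0.38 from 5200001 to 5240000, lay inside the cluster, near its AKR1C4 end. The same bin had the largest deposited difference in favour of LNCaP, -0.46. With the 3-bin mean undone, that bin read 0.42 in LNCaP and 0.09 in VCaP. The second bin of the cluster was then higher in LNCaP, at 0.47. The fourth had a wider gap, 0.30 in LNCaP against -0.38 in VCaP. The cluster stood 0.26 above the mean of its flanks in LNCaP, or 2.62 noise SDs, and 17.7% of all runs of 7 bins stood as far above theirs. In VCaP it lay 0.04 below its flanks, well within noise, inside a stretch of 2120 kb without the associated state. The VCaP domain nearest to the cluster began 659 kb beyond AKR1C4 and stretched for 1920 kb. AKR1E2 and UCN3 are the nearest protein-coding genes outside the cluster, and RefSeq also lists AKR1C8 within it.

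SRD5A1, the steroid reductase of skin, liver and other peripheral tissues, covers 2 bins. Their log2 enrichment was -0.19 and -0.20 in LNCaP and 0.40 and 0.33 in VCaP. On these overlapping means the lines did not overlap. With the averaging undone, the bins read -0.47 and -0.05 in LNCaP and -0.03 and 0.62 in VCaP. The higher LNCaP bin and the lower VCaP bin then lay within noise of each other, with noise SDs of 0.18 and 0.27. The undone difference of the locus was 0.56 ± 0.23. The means of the deposited values were -0.19 ± 0.15 in LNCaP and 0.36 ± 0.22 in VCaP. Their difference of 0.56 ± 0.27 was just beyond 2 noise SDs, a limit of 0.54. Among all runs of 2 bins, 18.9% had VCaP higher by as much. Centring each line on its genome median brought the difference to 0.42, and moving the bins 1 downstream brought it to 0.51, both within 2 noise SDs, so the call is marginal.

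SRD5A1 lay in a low of the deposited LNCaP profile, in which each value also holds the 2 bins before it. In LNCaP the second of its bins had the lowest deposited value in the window of 52 bins. The locus mean lay 0.37 below that of the flanks, or -2.44 noise SDs. SRD5A1 was the single locus of the 5 to pass that limit, which 9.30% of all runs of 2 bins and 9.46% of single bins passed in LNCaP. In VCaP, where 7.79% of single bins passed it, no locus did, and SRD5A1 lay 0.02 below its flanks. The next bin to the right, from 6680001 to 6720000, read -0.19 in LNCaP, as low as the locus, and 0.31 in VCaP, below both bins of the locus. With the averaging undone, the LNCaP low was in the first bin of the locus, at -0.47, which holds the smaller part of the gene. The second bin, which holds most of the gene, read -0.05, as did the next bin to the right. The undone locus mean in LNCaP was -0.26 and still passed the limit below its flanks. NSUN2 and TENT4A are the nearest protein-coding neighbours, and RefSeq lists 5 other protein-coding genes within 1 Mb.

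**Figure D2:**
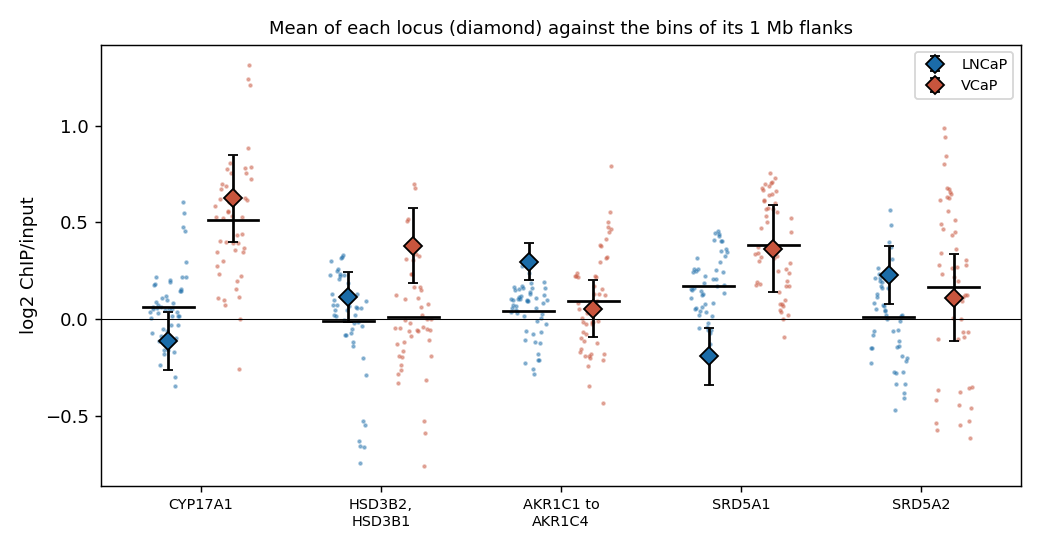
Mean log2 enrichment of each locus (diamonds, with 1 noise SD as error bars) beside the single bins of its 1 Mb flanks (dots) and their mean (black lines), for LNCaP (blue) and VCaP (red). The SRD5A1 diamond lies 0.37 below its flank mean in LNCaP and the AKR1C diamond 0.26 above, whereas in VCaP the HSD3B diamond is the farthest from its flank mean, 0.37 above and within 2 noise SDs.

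SRD5A2, the main steroid reductase of the normal prostate and the target of finasteride, covers 3 bins. Their log2 enrichment was 0.25, 0.16 and 0.27 in LNCaP and 0.06, 0.07 and 0.19 in VCaP. On these overlapping means each bin was higher in LNCaP, and the ranges overlapped. With the 3-bin mean undone, the first bin was instead higher in VCaP, 0.47 against 0.12, while the rest stayed higher in LNCaP. The means of the deposited values were 0.23 ± 0.15 in LNCaP and 0.11 ± 0.22 in VCaP, with a difference of -0.12 ± 0.27, within noise. Among all runs of 3 bins, 7.25% had LNCaP higher by over 2 noise SDs. On the deposited values this was the smallest difference among the 5 loci, although the model gave the lines different states. After each line was centred on its genome median it was -0.25, against 0.13 at the HSD3B pair. The SRD5A genes share a CG-rich start, shown above, and had opposite states within each line.

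The LNCaP domain over SRD5A2 spanned 11 bins from 31640001 to 32080000 and averaged 0.31. The peak of that domain was beside the gene: its highest bin, at 0.56, lay 73 kb to the right. VCaP had nearly the same hump there, 0.45 in that bin and 0.51 in the next, outside the associated state of the model. Over the 10 bins of the domain that were associated in LNCaP only, LNCaP averaged 0.32 and VCaP 0.23. To the left the lines parted: a VCaP domain from 30920001 to 31680000 had a mean of 0.59, and its highest bin, 509 kb before the gene, read 0.99 in VCaP and 0.20 in LNCaP. XDH and MEMO1 are the nearest protein-coding neighbours.

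**Figure D3:**
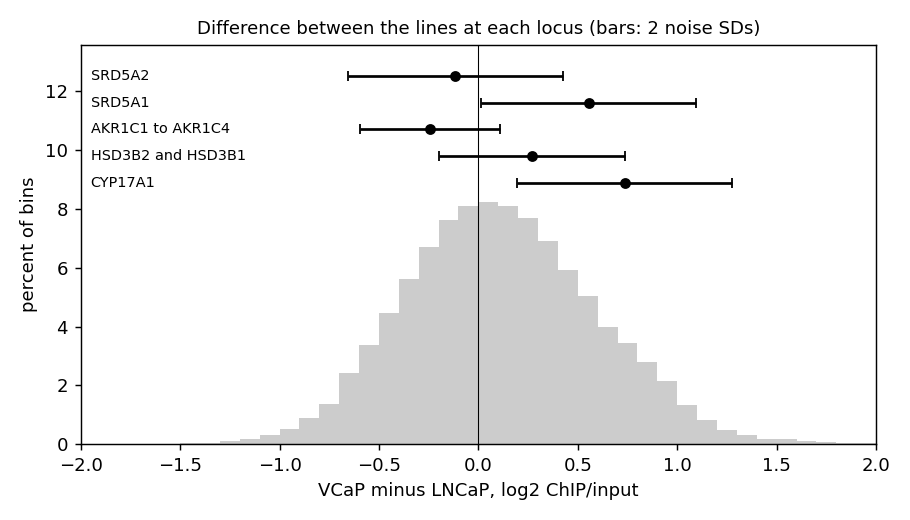
VCaP minus LNCaP difference in log2 enrichment at each locus (points, with 2 noise SDs as error bars, horizontal axis) above a histogram of the difference over all common bins in percent (grey, vertical axis). The bars of CYP17A1 and SRD5A1 stay above 0, and those of the HSD3B pair, the AKR1C cluster and SRD5A2 cross it.

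In the windows of both SRD5A genes a domain of 1 line gave way to a domain of the other, nearer to SRD5A2 than to SRD5A1. How common such switches are over all bins was not counted. Right of SRD5A1 the VCaP domain, 1400 kb long from 5560001, ended at 6960000, 290 kb past the gene. The LNCaP domain, 880 kb long, began at 6920001, so the domains shared 1 bin. Over the 34 bins associated in VCaP only, LNCaP averaged 0.07 and VCaP 0.50. Over the next 15 bins associated in LNCaP only, from 6960001 to 7560000, they averaged 0.32 and 0.10. The SRD5A1 window had a Pearson r of -0.52 between the lines over its 52 bins, the only negative value among the windows. Left of SRD5A2 the VCaP domain ended at 31680000 and the LNCaP domain began at 31640001, again with 1 shared bin, 69 kb from the gene. There r was 0.72 over 53 bins. It was 0.55 in the HSD3B window and 0.20 in the AKR1C window, against 0.28 over all common bins.

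The loci also differed in how near a border of the state lay. The HSD3B pair held a border in VCaP and the AKR1C cluster held one in LNCaP, and the VCaP border left of SRD5A2 was within 2 bins of the gene. Within 2 bins of a border were 10.3% of all bins in LNCaP and 13.0% in VCaP, with medians of 15 and 13 bins. The larger loci have more bins that could meet a border, so these counts are not comparable with single bins. CYP17A1 was 18 bins from a border in LNCaP and 8 in VCaP, and SRD5A1 was 7 and 8 bins away.

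In the flanks, which leave out the 17 bins of the loci, 51 of 248 bins (20.6%) were associated in LNCaP, against 37.9% of all bins, and 116 (46.8%) in VCaP, against 44.4%. Both lines were associated in 17 flank bins (6.85%, against 20.6% of all bins) and VCaP alone in 99 (39.9%, against 23.8%). LNCaP alone was associated in 34 (13.7%, against 17.2%) and neither in 98 (39.5%, against 38.4%). Neighbouring bins share their domains, so these shares rest on few separate stretches. The SRD5A1 window had no bin outside both, with 33 VCaP-only and 15 LNCaP-only bins, and the CYP17A1 window had 39 VCaP-only and 0 LNCaP-only bins. The AKR1C window had no bin associated in both lines, with 37 of its 57 bins in neither, and the HSD3B window had 35 of 52 in neither. The median log2 enrichment of the 265 bins was 0.07 in LNCaP and 0.22 in VCaP, close to the medians of all bins. On the deposited values 45 of the 265 bins (17.0%) had VCaP higher by over 2 noise SDs, against 19.1% of all bins. Of the 45, 20 were at CYP17A1 and 12 at SRD5A1. In 0 bins LNCaP was as far above, against 7.84% of all bins. That 0 depends on the zero point: after each line was centred on its genome median, 16 bins had VCaP higher (6.04%, against 13.2% of all bins). LNCaP was then higher in 6 (2.26%, against 13.5% of all bins).

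**Figure D4:**
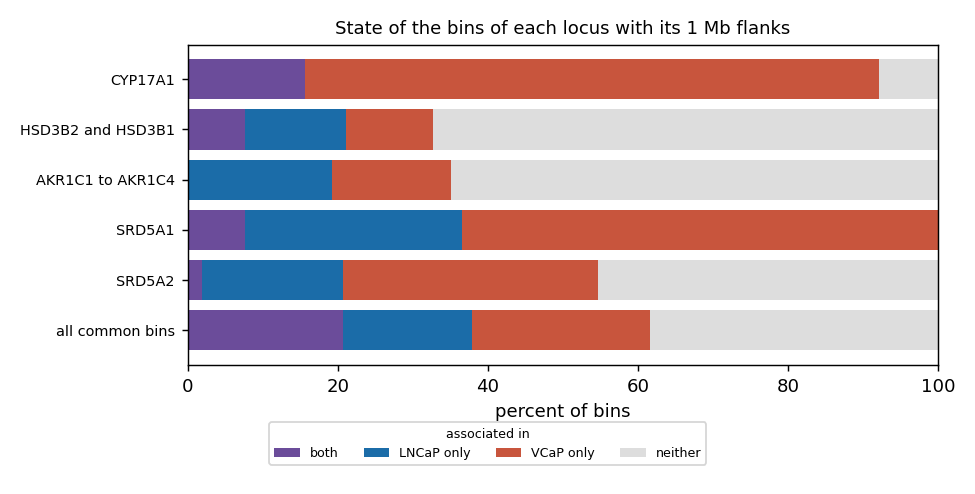
Share of bins in percent (horizontal axis) that were associated in both lines, in LNCaP only, in VCaP only or in neither, for each locus with its 1 Mb flanks and for all common bins. VCaP-only bins make up 76.5% of the CYP17A1 window and 63.5% of the SRD5A1 window, against 23.8% of all bins.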

How the data were processed

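Lamin B1 ChIP and input libraries of LNCaP and VCaP were grouped by their titles. The authors deposited 1 table of log2 enrichment of ChIP over input and 1 table of hidden Markov model states per line. The submitters' processing notes name hg19 and STAR with no role; the scaling, the filters and the model's settings are not given in the sources used here. The end of chromosome 1 in the tables is 249250621. The first 2 entries of each chromosome hold no value. In 194 LNCaP and 212 VCaP entries wider than 40 kb, each counted as 1 bin, the median absolute value was 0.21 and 0.33, and undoing a trailing mean of 3 entries brought both to 0.01, so values were treated as such means.

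Bins overlapping each locus and its 1 Mb flanks were taken. Noise is 1.4826 times the median absolute difference of bins 3 apart, divided by the square root of 2. For a difference the noise of the lines was combined, a locus counted 1 separate value per 3 bins, and a call needed 2 noise SDs. The background of a call is the same rule over all runs of as many bins. Procedures were tested on simulated data. For the difference call the simulated effect was larger than the difference at any locus here, so detection of differences of these sizes was not tested. The members, lists and rules were chosen with earlier results of these data known. Extreme bins, runs of at least 5 bins associated in 1 line only and nearest genes were named by rule. RefSeq genes and promoters are of GRCh38.p14 and served for sequence and gene order only; 15 other pathway genes were planned but not analysed here, as coordinates of different builds were not mixed. Python 3.11.15, numpy 2.4.6, pandas 2.3.3, Biopython 1.88 and matplotlib 3.10.9 were used.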

Additional observations from a re-analysis of the deposited data

Results flagged for a closer look

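2 loci had a mean log2 enrichment under 0 in LNCaP and over 0 in VCaP. The VCaP minus LNCaP difference was 0.74 at CYP17A1 and 0.56 at SRD5A1. With 1 library pair per line, the difference was not tested. Over all bins, 23.2% had the same signs. The LNCaP means, -0.11 ± 0.15 at CYP17A1 and -0.19 ± 0.15 at SRD5A1, were both within 2 noise SDs of 0, so the sign was settled at neither.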

How the results depend on the processing

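A total of 128 alternative values covered 33 results. Calling bins over 0 associated gave 5 loci in VCaP and 3 in LNCaP, 3 of them in both lines, and a threshold of 0.5 gave 0 in LNCaP and 1 in VCaP. Centring on the genome median and quantile normalization each left 1 locus higher in VCaP, CYP17A1, and gave 1 locus higher in LNCaP, the AKR1C cluster. Bins shifted by 1 left 1 locus higher in VCaP, CYP17A1, and undoing the mean gave 1 higher in LNCaP, the AKR1C cluster. The other 27 alternative counts stayed within 1.5 times. Among them, taking whole windows with their flanks raised the loci higher in VCaP from 2 to 3 by adding SRD5A2. Its window difference was 0.14, against -0.12 at the locus itself. The cause was not tested. All 20 alternative values of a locus difference moved by less than its noise SD. Among the locus means, 36 of 40 did so, and among the window shares 11 of 30 moved by less than 10 percentage points. The noise taken from the difference itself was added after seeing the data and changed no count. Centring the single bins of the windows was also added then. It brought the bins beyond 2 noise SDs from 45 to 16 with VCaP higher and from 0 to 6 with LNCaP higher. The centred shares were 6.04% and 2.26%, against 13.2% and 13.5% of all bins. No paired analysis was possible because there is 1 library in each group. Precision is limited by the noise between bins, as depth is unknown.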
